A study of Rattus norvegicus with 9 samples.

Results

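The 48 genes described here repair DNA crosslinks and double-strand breaks or signal such damage to the cell cycle. They were listed by gene symbol as the genes that handle damage such as the crosslinks left by retrorsine. The platform annotation held 43 of them, each with 1 probe set, and 42 passed a filter on dim genes, out of 15793 genes tested on the arrays. Fancb was dim on all 9 arrays and was not tested, and Prkdc, Xrcc3, Blm, Slx4 and Atr were not analysed here. RNA of laser-microdissected liver from female F344 rats had been hybridised to whole-transcript Affymetrix arrays, 3 per group. All groups came from livers given retrorsine, a plant alkaloid that is turned into a DNA crosslinker in hepatocytes, in 2 injections of 30 mg/kg set 2 weeks apart, and then partial hepatectomy 4 weeks after the second. The groups were hepatocytes beside the regenerating clusters (labelled Control), clusters of small hepatocyte-like progenitor cells (SHPC) in livers without transplantation, and SHPC clusters of livers that had also received sorted Thy1+ cells of DPPIV+ donors through the spleen, in DPPIV− recipients (labelled Thy1). In the hepatocyte group 1 description field names transplanted SHPCs, against the title and the cell type field, which were followed. No group lacked retrorsine or hepatectomy, so no comparison here measures the effect of either. No source used here gives the number of animals or ties a region to an animal. The p-values therefore measure the spread between arrays, and they are too small if arrays of the same group share an animal. If arrays of different groups share an animal, the main fit leaves that pairing out.

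An interstrand crosslink ties both DNA strands together and blocks replication. The Fanconi core complex recognises the stalled fork and attaches ubiquitin to the pair FANCD2 and FANCI, which then brings in nucleases that unhook the lesion, polymerases that copy past it, and the homologous recombination proteins around BRCA1 and BRCA2 that mend the remaining break. Breaks can instead be sealed by end joining, which starts with the Ku proteins and works at any stage of the cell cycle, whereas recombination depends on a sister copy and many of its genes are transcribed mainly in S and G2 phase. The kinases ATM and ATR, with CHEK1 and CHEK2 below them, hold the cycle until repair is done.

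Levels below are log2 of the deposited intensity, and changes are differences of group means on that scale with limma's SE, from 1 fit over all 9 arrays (n = 3 per group). A gene passed at a Benjamini-Hochberg adjusted p under 0.05 over all 15793 genes. On the first principal component, SHPC array 2 and hepatocyte array 2 lay far from the rest, at 54.1 and 42.2 against −22.8 to 2.30 for the other 7 arrays. Several results are therefore also given without both of these arrays that stood apart, but not every result that moved without them. Of 10 tested hepatocyte markers 0 passed in any comparison. In SHPCs 7 of 10 were higher than in hepatocytes, with changes of −0.64 to 1.11. In transplanted SHPCs 9 of 10 were higher, with changes of −0.65 to 0.70. In each of these comparisons 2 were higher and 1 lower at an unadjusted p under 0.05. Of all genes 2.31% were higher and 1.81% lower at that level in the first, and 7.07% and 3.32% in the second. Between the SHPC groups 7 of 10 were higher, and 1 was lower at an unadjusted p under 0.05, against 2.29% of all genes. Cyclic loess turned the balance, with 2 of 10 higher between the SHPC groups and 4 of 10 from hepatocytes to transplanted SHPCs, where 1 then passed. Without both arrays that stood apart 5 of 10 were higher between the SHPC groups. From hepatocytes to transplanted SHPCs 8 of 10 were higher without them, and 1 passed. Alb, Apob and Ttr had group means of 12.4 or more in all groups, and Cyp3a2 lay below the 25th percentile on hepatocyte arrays 1 and 2.

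SHPC clusters of transplanted livers held about 2 times as much RNA of Fancd2 and Fanci as the hepatocyte group did. The products of these genes are the ubiquitinated pair at the centre of crosslink repair. These were the only members that passed in any of the 3 comparisons: 2 of 42 were higher in transplanted SHPCs than in hepatocytes, where 0.861% of all genes tested passed as higher and 1.18% in either direction, and 0 were lower against 0.317%. The hepatocytes are not tied here to livers with or without transplantation, so cluster and transplantation cannot be told apart in this difference. In tissue pieces, fewer cells of a type and less RNA per cell cannot be told apart. Fancd2 (probe set 17786114) was at 4.11, 3.69 and 4.25 on hepatocyte arrays 1 to 3, at 4.60, 4.25 and 4.68 on the SHPC arrays, and at 5.17, 5.02 and 5.16 on the arrays of transplanted livers. All 3 arrays of transplanted livers lay above all other arrays, and the SHPC and hepatocyte arrays overlapped. Its change from hepatocytes to transplanted SHPCs was 1.10 ± 0.18 (SE), or 2.15-fold (limma adjusted p = 0.0214). Fanci (probe set 17617625) was at 3.20, 3.07 and 3.39 in hepatocytes, at 3.94, 3.31 and 3.79 in SHPCs and at 4.27, 4.28 and 4.37 in transplanted SHPCs. It showed the same order of groups with the same overlap, and hepatocyte array 2 was just below that array's 25th percentile of 3.08, so the low side of its difference is uncertain. The change was 1.08 ± 0.17, or 2.12-fold (limma adjusted p = 0.0216).

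Set against SHPCs without transplantation, Fancd2 differed by 0.61 ± 0.18 and Fanci by 0.63 ± 0.17 in transplanted SHPCs, 1.52-fold and 1.54-fold. Neither passed (limma adjusted p = 0.453 and 0.4195). From hepatocytes to SHPCs without transplantation the differences were 0.49 ± 0.18 and 0.46 ± 0.17 (limma adjusted p = 0.913 and 1). These 3 comparisons share arrays, so their values for a gene are not separate evidence. Without both arrays that stood apart, the differences from hepatocytes to transplanted SHPCs were 0.94 and 1.01 with both calls kept. Both calls ended without hepatocyte array 1 or 2, without any 1 of the 3 arrays of transplanted livers and after median centring (limma adjusted p = 0.0784 and 0.0794), and that of Fanci also without hepatocyte array 3, with changes of 0.94 to 1.22 for Fancd2 and 1.01 to 1.17 for Fanci over all single arrays left out. Brip1, the helicase partner of BRCA1, was at 3.48, 3.60 and 3.19 in hepatocytes, 3.73, 3.45 and 3.88 in SHPCs and 3.56, 3.69 and 4.25 in transplanted SHPCs. Its groups overlapped in each comparison, and its largest difference, 0.41 ± 0.21 from hepatocytes to transplanted SHPCs, did not pass (limma adjusted p = 0.539).

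**Figure D1:**
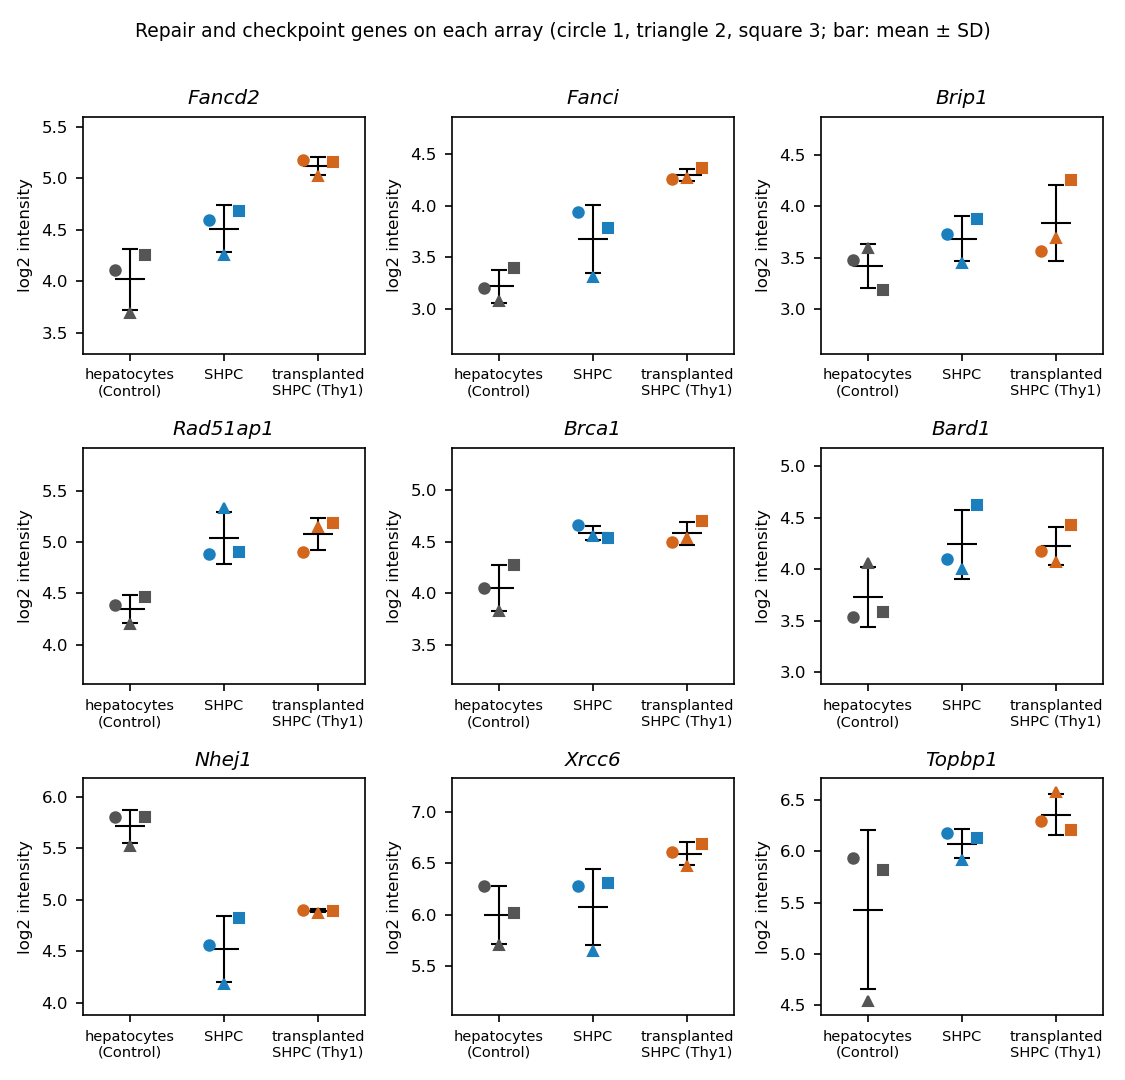
Log2 intensity (vertical axis, every panel spanning 2.3 units) of 9 repair and checkpoint genes on each array of hepatocytes (Control), SHPCs and SHPCs of transplanted livers (Thy1), with the mean and SD of 3 arrays as bars. For Fancd2 and Fanci the 3 Thy1 arrays, at 5.02 to 5.17 and 4.27 to 4.37, lie above all others, and for Nhej1 the 3 Control arrays do, at 5.52 to 5.81.

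The promoters of the pair and of Nhej1, the member with the largest difference in the other direction, are shown because these 3 genes carry the largest differences among the members. They run from 250 bases before to 50 bases after the annotated start and come from RefSeq for build GRCr8: Fancd2 at chr4:148234458-148234757, plus strand, Fanci at chr1:142736403-142736702, plus strand, and Nhej1 at chr9:84070768-84071067, minus strand. Capitals mark matches to E2F-like letters, which are TTGGCGC and its variant forms, namely TTCCCGC and also the form TTCGCGC and lastly the form TTGCCGC, and to the cell cycle homology region, or CHR, spelled TTTGAA, all searched on both strands. The CCAAT box, spelled as its name, was searched on both strands too and had no match in the 3 windows.
Fancd2: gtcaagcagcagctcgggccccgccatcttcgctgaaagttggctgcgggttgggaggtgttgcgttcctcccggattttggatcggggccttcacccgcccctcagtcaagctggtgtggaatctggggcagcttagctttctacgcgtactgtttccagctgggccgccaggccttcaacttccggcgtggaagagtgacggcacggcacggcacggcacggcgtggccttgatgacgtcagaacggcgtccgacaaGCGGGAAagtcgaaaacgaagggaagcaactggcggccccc
Fanci: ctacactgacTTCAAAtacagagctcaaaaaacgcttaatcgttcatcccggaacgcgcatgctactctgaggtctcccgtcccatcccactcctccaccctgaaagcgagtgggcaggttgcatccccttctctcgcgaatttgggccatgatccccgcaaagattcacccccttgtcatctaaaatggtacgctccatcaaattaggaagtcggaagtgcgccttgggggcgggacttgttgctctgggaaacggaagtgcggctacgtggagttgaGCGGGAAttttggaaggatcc
Nhej1: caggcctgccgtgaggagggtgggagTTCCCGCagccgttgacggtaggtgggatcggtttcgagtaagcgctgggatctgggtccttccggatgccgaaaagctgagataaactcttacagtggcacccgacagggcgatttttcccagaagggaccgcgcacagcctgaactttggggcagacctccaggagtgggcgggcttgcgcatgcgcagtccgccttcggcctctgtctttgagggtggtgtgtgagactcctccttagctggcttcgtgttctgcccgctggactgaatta
Fancd2 and Fanci each held 1 E2F-like match just after the start, TTCCCGC on the opposite strand with its first printed base at position 10 and 30 after the start. In Nhej1 the same letters lay on the gene's strand, at position −224 from the start. Fanci also held a CHR match on the opposite strand, at position −240. Of 41 members with a promoter entry, 16 held an E2F-like match (39%), against 14.8% of the promoters of 12703 genes tested here and 9.54% of all 33365 promoter sequences. CHR letters stood in 8 of 41 (19.5%) against 13.6% of tested genes and 18.3% of all, and CCAAT in 16 of 41 (39%) against 37.8% and 37.5%. A match describes letters in the window and was not tied to binding by any measurement here.

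The Fanconi core complex, the ubiquitin ligase that acts on this pair, did not pass for any tested subunit. From hepatocytes to SHPCs all 7 tested core genes were higher, by a median of 0.12 (6 of 7 without both arrays that stood apart), from SHPCs to transplanted SHPCs 2 of 7 were, by a median of −0.04 (0.07, 0.01 and 0.03 after median centring, renewed quantile normalization and cyclic loess), and from hepatocytes to transplanted SHPCs 5 of 7, by 0.09. Fanca, a scaffold subunit and the core gene with the smallest p, was at 3.46, 3.99 and 3.99 in hepatocytes, 3.93, 4.06 and 3.82 in SHPCs and 4.26, 3.99 and 4.30 in transplanted SHPCs. Hepatocyte array 1 was its lowest value and the groups overlapped, with a difference of 0.37 ± 0.17 between hepatocytes and transplanted SHPCs (limma adjusted p = 0.509). Fancl, the ligase subunit itself, differed by 0.28 ± 0.16 in that comparison, and Fancc, Fance, Fancf, Fancg and the fork helicase gene Fancm by −0.18 to 0.11. Fancb, an X-linked core subunit gene, lay between 2.01 and 3.00, below the 25th percentile of every array.

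Among the recombination genes, Rad51ap1, Brca1 and Bard1 were higher in both SHPC groups than in hepatocytes without passing, and the other 9 tested genes had differences of −0.29 to 0.26 in every comparison. From hepatocytes to SHPCs 7 of 12 tested recombination genes were higher, by a median of 0.07. Without both arrays that stood apart 11 of 12 were, by 0.17. Rad51ap1, whose product helps joint molecules form during recombination, was at 4.39, 4.20 and 4.46 in hepatocytes, 4.88, 5.33 and 4.90 in SHPCs and 4.90, 5.15 and 5.18 in transplanted SHPCs. Every SHPC array of either group lay above every hepatocyte array. Its changes from hepatocytes were 0.69 ± 0.16 to SHPCs (1.61-fold, limma adjusted p = 0.425) and 0.73 ± 0.16 to transplanted SHPCs (1.65-fold, limma adjusted p = 0.0803). Between the SHPC groups it differed by 0.04 ± 0.16. Without both arrays that stood apart the difference of 0.65 from hepatocytes to transplanted SHPCs passed (limma adjusted p = 0.023), as it did without SHPC array 2 alone (0.017), after renewed quantile normalization (0.0363) and after cyclic loess (0.0148).

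Brca1, which with BARD1 directs breaks into recombination, was at 4.05, 3.83 and 4.28 in hepatocytes, 4.66, 4.56 and 4.53 in SHPCs and 4.50, 4.54 and 4.71 in transplanted SHPCs. Again both SHPC groups lay wholly above the hepatocytes, by 0.54 ± 0.14 and 0.53 ± 0.14 (1.45-fold each), and they differed by −0.0036 ± 0.14 from each other (limma adjusted p = 0.5595, 0.163 and 0.998). Its partner Bard1, named after its values were seen, was at 3.53, 4.06 and 3.58 in hepatocytes, 4.10, 4.00 and 4.63 in SHPCs and 4.18, 4.07 and 4.43 in transplanted SHPCs. Hepatocyte array 2 was near the SHPC arrays and the other hepatocyte arrays were lower, and the differences from hepatocytes were 0.51 ± 0.21 and 0.50 ± 0.21. Brca2, whose product acts with PALB2 in recombination, lay between 4.47 and 4.81 on all arrays, with differences of −0.10 ± 0.13, 0.11 ± 0.13 and 0.02 ± 0.13 from hepatocytes to SHPCs, between the SHPC groups and from hepatocytes to transplanted SHPCs. Its partner Palb2, the recombination genes Rad51b, Rad51c, Rad51d and Xrcc2, the remodeler Rad54l, the exonuclease Exo1 and the end-resection factor Rbbp8 had overlapping groups, with 1 exception. Xrcc2 was lower on all 3 arrays of transplanted livers (3.93 to 4.12) than on all SHPC arrays (4.12 to 4.63), with the nearest values equal to 2 decimals, by −0.26 ± 0.22 (limma adjusted p = 0.743), and without SHPC array 2 this was −0.10.

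**Figure D2:**
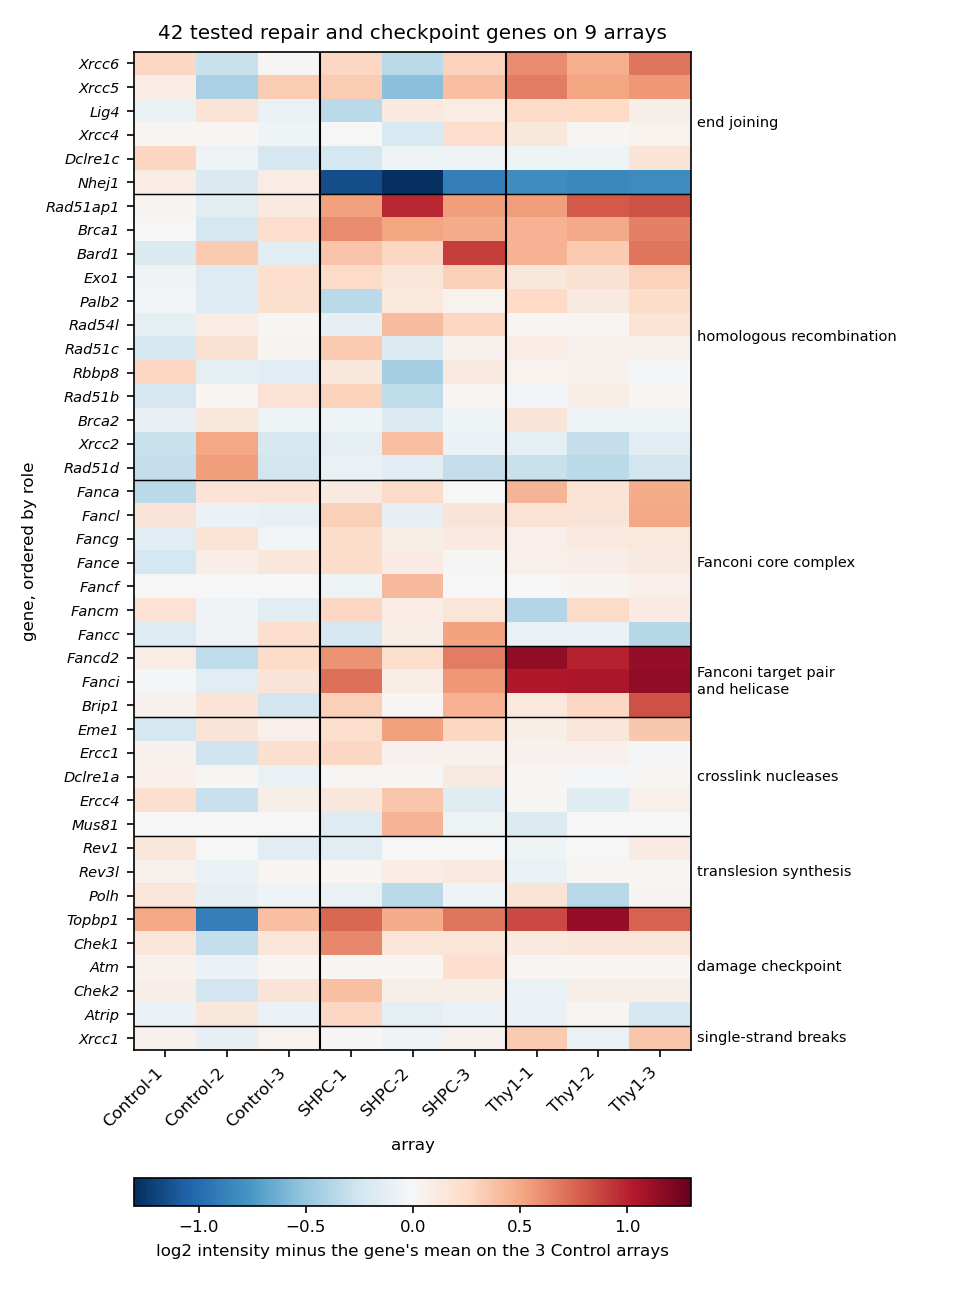
Log2 intensity of each of the 42 tested genes (rows, ordered by role) on each array (columns), relative to the gene's mean over the 3 hepatocyte (Control) arrays; red is higher and blue lower, with values beyond 1.3 in either direction drawn at that limit. The deepest red rows on the Thy1 arrays are Fancd2 and Fanci, whose mean differences are 1.10 and 1.08, and the deepest blue row is Nhej1, at −1.19 in SHPCs and −0.82 in Thy1.

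End joining held the largest difference of all members, in Nhej1, the gene of the factor XLF that bridges the broken ends for ligation. Nhej1 (probe set 17865588) was at 5.81, 5.52 and 5.81 in hepatocytes, 4.56, 4.18 and 4.82 in SHPCs and 4.90, 4.87 and 4.89 in transplanted SHPCs. All hepatocyte arrays lay above all SHPC arrays of either group. From hepatocytes to SHPCs it differed by −1.19 ± 0.17, a 2.28-fold lower level that just missed the threshold (limma adjusted p = 0.0537), and from hepatocytes to transplanted SHPCs by −0.82 ± 0.17, 1.77-fold lower (0.0601). Between the SHPC groups it was higher on all arrays of transplanted livers, by 0.37 ± 0.17 (0.695), which was 0.20 without SHPC array 2. The difference from hepatocytes to SHPCs passed in 10 of 22 alternatives. Same-numbered hepatocyte and SHPC arrays deviated together, but with both arrays that stood apart left out the correlation was 0.10. Replicate numbers carry no stated meaning, so a block by number may not mark a real pairing. With that block Nhej1 passed as lower in SHPCs. The limma adjusted p was 0.0151 in a fit of these groups alone and 0.0189 over all arrays. Without both arrays that stood apart both differences passed, at −1.12 (limma adjusted p = 0.0212) and −0.92 (0.00502). In a fit of hepatocytes and SHPCs alone without the block, the adjusted p was 0.472.

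The Ku genes went the other way in transplanted SHPCs. Xrcc6, the gene of Ku70, was at 6.28, 5.71 and 6.02 in hepatocytes, 6.28, 5.65 and 6.31 in SHPCs and 6.61, 6.47 and 6.69 in transplanted SHPCs. The arrays of transplanted livers lay above all others, and the 2 arrays that stood apart were the lowest. Its differences were 0.59 ± 0.21 from hepatocytes and 0.52 ± 0.21 from SHPCs (limma adjusted p = 0.324 and 0.651), and without SHPC array 2 the second was 0.30. Without hepatocyte array 2 the first was 0.445. Xrcc5, the gene of Ku80, was at 6.001, 5.49 and 6.24, then 6.24, 5.36 and 6.30, then 6.57, 6.43 and 6.47 in the same order of groups. It had the same pattern, with 0.58 ± 0.26 from hepatocytes and 0.52 ± 0.26 from SHPCs (limma adjusted p = 0.488 and 0.7055), the second of which was 0.22 without SHPC array 2. Hepatocyte array 2 was the lowest of its group for Xrcc5 too, which enlarges the first difference. The ligase gene Lig4, its partner Xrcc4 and the nuclease gene Dclre1c, which opens hairpin ends, had overlapping groups and differences of −0.12 to 0.24. All 6 tested end joining genes were higher in transplanted than in other SHPCs, by a median of 0.30, with 0 passing, and 5 of 6 were so without both arrays that stood apart, by 0.21. Xrcc1, the scaffold of single-strand break repair, lay between 5.29 and 5.75 on all arrays and differed by 0.21 ± 0.15 between hepatocytes and transplanted SHPCs (limma adjusted p = 0.679).

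The nucleases that unhook crosslinks showed small differences. From hepatocytes to SHPCs 5 of 5 tested genes were higher, by a median of 0.12, and 3 of 5 without both arrays that stood apart. Between the SHPC groups 0 of 5 were higher, by −0.13. Without both arrays 1 of 5 was, and after median centring 2 of 5 were. From hepatocytes to transplanted SHPCs 3 of 5 were higher, and 0 passed in any comparison. Eme1, the partner of MUS81, was at 3.66, 4.06 and 3.96 in hepatocytes, 4.13, 4.43 and 4.16 in SHPCs and 3.97, 4.05 and 4.25 in transplanted SHPCs. The SHPC arrays lay above the hepatocyte arrays, by 0.34 ± 0.16 (limma adjusted p = 1), and the transplanted arrays overlapped both. Mus81, the flap nuclease genes Ercc1 and Ercc4, and Dclre1a, an exonuclease that trims crosslinked DNA, differed by −0.14 to 0.13 in every comparison. Among the genes of bypass polymerases, Rev3l, the catalytic subunit of polymerase zeta, lay between 5.38 and 5.59, Rev1 between 4.80 and 5.10, and Polh between 4.83 and 5.35, with differences of −0.16 to 0.11 and overlapping groups.

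At the checkpoint, Topbp1, the activator of ATR, was the gene with the largest difference. It was at 5.93, 4.54 and 5.82 in hepatocytes, 6.18, 5.91 and 6.12 in SHPCs and 6.29, 6.58 and 6.20 in transplanted SHPCs. Hepatocyte array 2 was far below every other value, and the arrays of transplanted livers lay above all others. The difference from hepatocytes to transplanted SHPCs was 0.92 ± 0.32 (limma adjusted p = 0.31) and without hepatocyte array 2 it was 0.48. Atm lay between 5.08 and 5.38, with differences of 0.09 ± 0.12, −0.07 ± 0.12 and 0.02 ± 0.12 from hepatocytes to SHPCs, between the SHPC groups and from hepatocytes to transplanted SHPCs. Chek1, the kinase below ATR, was at 4.90, 4.43 and 4.90 in hepatocytes, 5.36, 4.90 and 4.90 in SHPCs and 4.87, 4.90 and 4.90 in transplanted SHPCs. Of its 9 values 6 were equal, only SHPC array 1 was higher, and the largest difference was 0.31 ± 0.18 from hepatocytes to SHPCs (limma adjusted p = 1). Chek2 and Atrip, the partner of ATR, had differences of −0.16 to 0.18. Of the 5 tested checkpoint genes 5 were higher from hepatocytes to SHPCs, by a median of 0.18. Between the SHPC groups 1 of 5 was higher, by −0.11. From hepatocytes to transplanted SHPCs 4 of 5 were, by 0.02, and 1 of 5, by −0.01, without both arrays that stood apart.

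**Figure D3:**
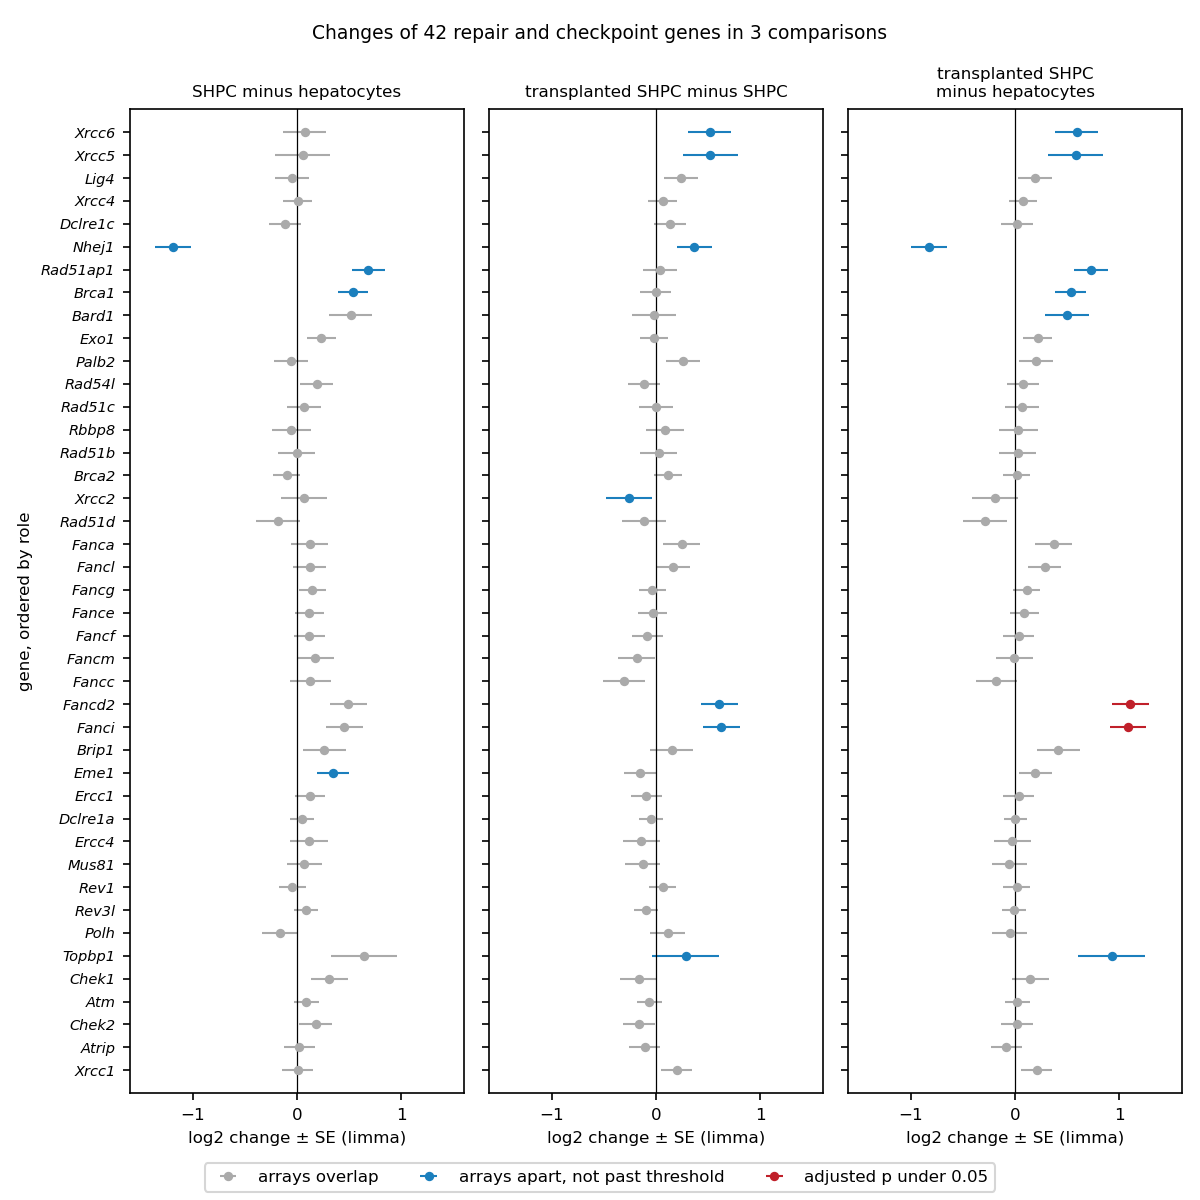
Log2 change with limma's SE (horizontal axis) of the 42 tested genes, ordered by role, in the 3 comparisons; red marks genes past the threshold, blue those whose 3 arrays of one group lie apart from the other group's without passing, and grey those that overlap. Red occurs in the right panel alone, for Fancd2 at 1.10 and Fanci at 1.08, and most genes lie near 0.

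Counted over the 42 genes, a larger share of members than of all genes was higher at an unadjusted p under 0.05 in both comparisons with hepatocytes. Between the SHPC groups the shares were near each other, at 7.14% of members and 5.07% of all genes. No test of the list was made, and its members were chosen with earlier results of these data known. From hepatocytes to SHPCs 0 passed in limma, against 0.0317% of all genes in each direction and 0.0633% in either. With no adjustment, 5 (11.9%) were higher and 1 (2.38%) lower at p under 0.05, where 2.31% and 1.81% of all genes were, or 4.12% together. Groups did not overlap for 3 genes higher (7.14%) and 1 lower (2.38%), against 2.72% and 2.49% of all genes, or 5.22% together. The count of 0 became 1, Nhej1, with the replicate number as a block in either form, and 3, adding Bard1 and Fanci, with array weights. In that comparison 32 of 42 members were higher, by a median of 0.10, where 48.6% of all genes were higher and the median was −0.0062.

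From SHPCs to transplanted SHPCs 0 of 42 passed in limma, against 0% of all genes as higher and 0.00633% as lower, and 3 higher (7.14%) and 0 lower had an unadjusted p under 0.05, against 5.07% and 2.29% of all genes, or 7.35% together. The groups lay apart for 6 genes higher (14.3%), Fanci, Fancd2, Xrcc6, Nhej1, Xrcc5 and Topbp1, and 1 lower, Xrcc2 (2.38%), where 10.6% and 5.23% of all genes did, or 15.8% together. Of the members 20 of 42 were higher, by a median of −0.0029, and after median centring, which moved the median of all genes from 0.02 to 0.12, 31 of 42 were, by 0.10. From hepatocytes to transplanted SHPCs 2 passed (4.76%), as given above, and 7 higher (16.7%) and 1 lower (2.38%) had an unadjusted p under 0.05, against 7.07% and 3.32% of all genes, or 10.4% together. The groups lay apart for 8 higher (19%) and 1 lower (2.38%), against 12.6% and 6.64%, or 19.2% together. Here 32 of 42 were higher, by a median of 0.07, against 49.8% and −0.0013 over all genes. Median centring alone lifted the median of all genes to 0.09 here, and with it the members' count to 38, while without both arrays that stood apart 27 of 42 were higher. The members called were 4 without both arrays that stood apart and without SHPC array 2 alone, adding Rad51ap1 and Nhej1 to the pair, 1 without hepatocyte array 3, and 0 without any 1 of hepatocyte arrays 1 and 2 and the 3 arrays of transplanted livers.

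Other repair genes were taken from lists of the same pathways. Of 35 other break and crosslink repair genes 0 passed in any comparison, with medians of 0.06, 0.04 and 0.10 from hepatocytes to SHPCs, between the SHPC groups and from hepatocytes to transplanted SHPCs. The medians between the SHPC groups and from hepatocytes to transplanted SHPCs were −0.02 and 0.03 without both arrays that stood apart, with 0 and 2 passing. Without adjustment 2, 0 and 3 of them, all higher, had a p under 0.05, and the groups lay apart for 5, 1 and 8 as higher and 0, 1 and 0 as lower. Of all genes, 2.72%, 10.6% and 12.6% lay apart as higher and 2.49%, 5.23% and 6.64% as lower. At an unadjusted p under 0.05, 2.31%, 5.07% and 7.07% of all genes were higher and 1.81%, 2.29% and 3.32% lower. The same shares stand beside the counts of the lists below. H2ax, the histone variant marked at breaks, had the smallest p among them in both comparisons with hepatocytes, at 0.73 ± 0.18 in SHPCs and 0.77 ± 0.18 in transplanted SHPCs (limma adjusted p = 0.468 and 0.0933). Gen1, a nuclease that cuts joint molecules, differed by 0.68 ± 0.19 from hepatocytes to transplanted SHPCs and the ubiquitin ligase gene Rad18 by 0.47 ± 0.18 from hepatocytes to SHPCs. Between the SHPC groups the smallest p belonged to Faap20 and Mad2l2, at −0.22 ± 0.12 and −0.21 ± 0.12. Of 13 other checkpoint genes 0 passed, with medians of 0.14, 0.12 and 0.16 (0.02 between the SHPC groups without both arrays that stood apart). At an unadjusted p under 0.05, 1, 0 and 2 were higher, with Timeless at 0.46 ± 0.19 and Cdc25b at 0.37 ± 0.20 in SHPCs and 0.45 ± 0.19 and 0.53 ± 0.20 in transplanted SHPCs against hepatocytes, and Rad9a and Cdc25c at 0.18 ± 0.11 and 0.19 ± 0.15 between the SHPC groups.

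Nucleotide excision repair, which removes bulky lesions from 1 strand, had 0 of 18 genes passing, 0 with an unadjusted p under 0.05 in any comparison, and medians of −0.06, 0.11 and 0.05 in the same order of comparisons. The last 2 medians turned to −0.01 and −0.02 without both arrays that stood apart. Its smallest p-values belonged to Gtf2h1 and Ercc8 (−0.25 ± 0.18 and 0.25 ± 0.21 in SHPCs against hepatocytes), Cetn2 and Ercc3 (0.73 ± 0.37 and 0.41 ± 0.26 between the SHPC groups) and Gtf2h1 and Cetn2 (−0.39 ± 0.18 and 0.79 ± 0.37 in transplanted SHPCs against hepatocytes). Base excision and mismatch repair had 0 of 22 passing, 0, 1 and 2 higher and 0, 0 and 1 lower at an unadjusted p under 0.05, and medians of −0.0015, 0.06 and 0.02. They were 0.02, 0.03 and 0.0020 without both arrays that stood apart, where 1 gene passed from hepatocytes to transplanted SHPCs. In the fit of all arrays the flap nuclease gene Fen1 differed by 0.54 ± 0.16 between the SHPC groups and 0.68 ± 0.16 from hepatocytes to transplanted SHPCs (limma adjusted p = 0.457 and 0.0934), the replicative ligase gene Lig1 by 0.34 ± 0.17 and 0.58 ± 0.17 from hepatocytes to the 2 SHPC groups, Mlh3 by −0.37 ± 0.18 in SHPCs against hepatocytes and Apex1 by −0.35 ± 0.16 between the SHPC groups.

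Genes of p53 and its targets, which answer DNA damage, were mostly lower in SHPCs: 12 of 15 were below hepatocytes, by a median of −0.37, and 11 of 15 in transplanted SHPCs, by −0.25, with 0 passing and 6 and 7 lower at an unadjusted p under 0.05. Without both arrays that stood apart the medians were −0.32 and −0.40, the reverse order of the groups, with 1 and 2 passing. Cyclic loess gave −0.35 and −0.39 with 2 and 3 passing. Renewed quantile normalization gave −0.37 and −0.36 with 1 and 2, and median centring −0.38 and −0.16 with 0. Cdkn1a, the cyclin kinase inhibitor p21, differed by −0.83 ± 0.13 in SHPCs and −0.48 ± 0.13 in transplanted SHPCs (limma adjusted p = 0.102 and 0.179). Ccng1 differed by −1.23 ± 0.26 and −0.67 ± 0.26 in the same comparisons, Plk3 by −0.66 ± 0.17 from hepatocytes to transplanted SHPCs and −0.47 ± 0.17 between the SHPC groups, and Sesn1 by 0.52 ± 0.16 between the SHPC groups. The list's mean over genes lay at −0.67 to −0.28 on the SHPC arrays and −0.30 to −0.19 on those of transplanted livers, relative to the hepatocyte mean.

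Cell division genes were mostly higher in both SHPC groups than in hepatocytes. All 21 G2 and M phase genes were higher in both SHPC groups than in hepatocytes, by medians of 0.94 and 1.68, with 1 and 12 passing, and 20 of 21 were higher in transplanted than in other SHPCs, by 0.62, with 0 passing and 10 at an unadjusted p under 0.05, and by 0.34 without both arrays that stood apart. In the comparisons with hepatocytes 6 and 17 passed without those arrays. Cyclic loess gave 4 and 18 there, and median centring 0 and 8. Their summed linear intensity was 493 to 738 on the hepatocyte arrays, 867 to 1644 on the SHPC arrays and 1799 to 2171 on those of transplanted livers. Ccnb1, or cyclin B1, rose by 1.59 ± 0.18 in SHPCs and 2.35 ± 0.18 in transplanted SHPCs (limma adjusted p = 0.0249 and 0.00149), and Cenpf, of the kinetochore, by 1.48 ± 0.14 in the second (0.00295). Prc1 differed by 1.04 ± 0.15 from hepatocytes to SHPCs (0.0537), and Cenpf and Kif20a by 0.71 ± 0.14 and 1.02 ± 0.20 between the SHPC groups. The part of dividing cells in the values of Fancd2, Fanci and Rad51ap1 was not tested.

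S phase genes were higher in 17 of 19 in SHPCs and 16 of 19 in transplanted SHPCs, by medians of 0.54 and 0.33, with 0 and 2 passing, and in 7 of 19 between the SHPC groups, by −0.16. Without adjustment 11 were higher and 0 lower at p under 0.05 in SHPCs against hepatocytes, and 1 higher and 3 lower between the SHPC groups. Leaving out both arrays that stood apart gave 5 and 2 passing against hepatocytes, with 4 of 19 higher between the SHPC groups, by −0.22. Median centring left 0 passing against hepatocytes and gave −0.06 between the SHPC groups. The genes past the threshold were Rrm2, the ribonucleotide reductase subunit, at 2.75 ± 0.46, and Prim1, the primase, at 1.84 ± 0.32 (limma adjusted p = 0.0251 and 0.027). The helicase genes Mcm2 and Mcm5 differed by 0.68 ± 0.16 and 0.84 ± 0.21 from hepatocytes to SHPCs, and Rrm2 and Cdc45 by 1.18 ± 0.46 and −0.45 ± 0.18 between the SHPC groups.

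**Figure D4:**
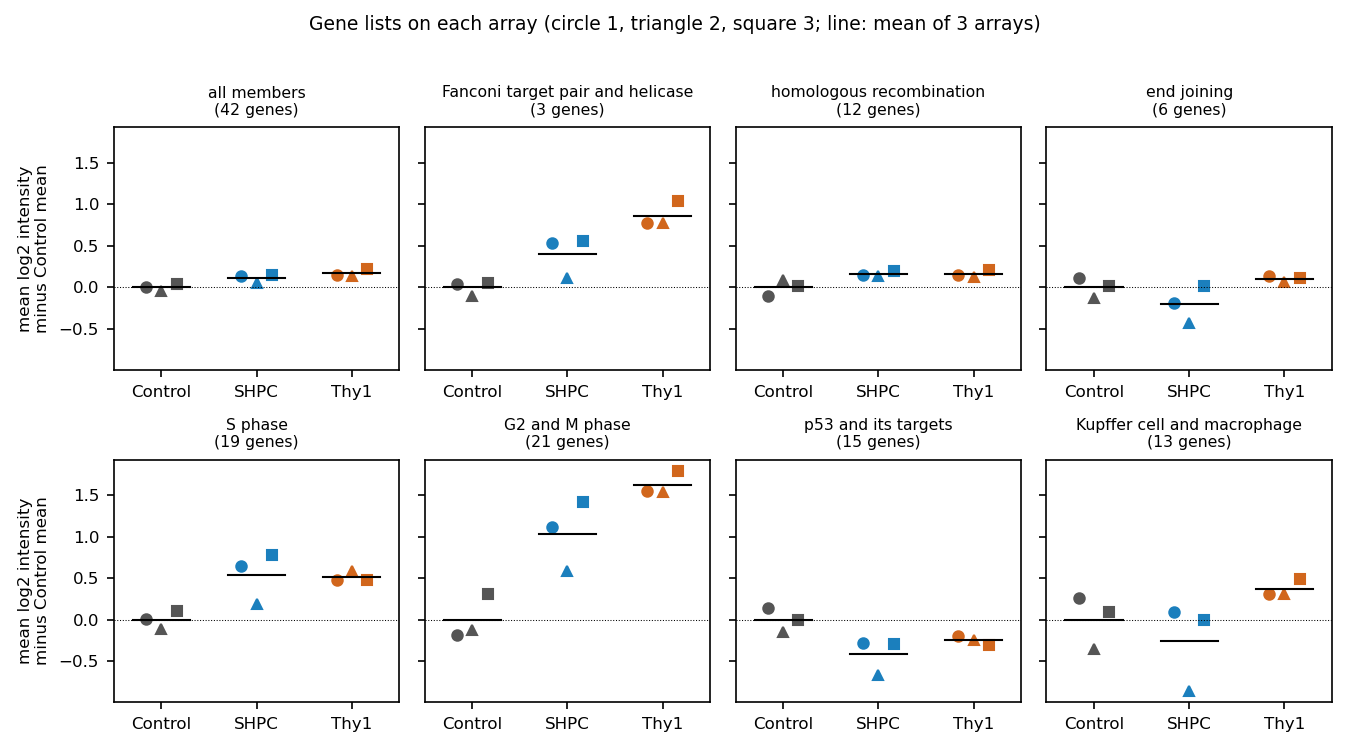
Mean log2 intensity of a gene list on each array minus its mean on the hepatocyte (Control) arrays (vertical axis, shared), for all tested repair and checkpoint genes, 3 of their role groups, 2 cell division lists, p53 and its targets, and markers of Kupffer cells; points are arrays and lines group means. The Fanconi target pair with Brip1 lies at 0.78 to 1.04 on the Thy1 arrays and the G2 and M phase list at 1.54 to 1.80, while recombination genes lie at 0.12 to 0.21.

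Markers of other cells were set beside these values. All 13 markers of Kupffer cells, which are liver macrophages, were higher in transplanted than in other SHPCs, by a median of 0.62 with 0 passing and 5 at an unadjusted p under 0.05, and by 0.27 without both arrays that stood apart. From hepatocytes to transplanted SHPCs 12 of 13 were higher, by 0.31, with 1 passing there (Marco, 0.80; limma adjusted p = 0.0456). That count was 8 of 13 without both arrays that stood apart, by 0.08 with 1 passing. Cyclic loess and renewed quantile normalization gave 0.15 and 0.17 there, with 0 passing. From hepatocytes to SHPCs, where Nhej1 and the p53 list were lower, 11 of 13 Kupffer markers were lower, by a median of −0.30 (−0.21 without both arrays that stood apart). Of these 0 passed and 2 had an unadjusted p under 0.05. Their summed linear intensity was 2320 to 3171 on hepatocyte arrays, 1674 to 2806 on SHPC arrays and 3265 to 3902 on those of transplanted livers, and none of the 13 fell to the 25th percentile on any array. The part of these cells in the differences of Fancd2, Fanci, Nhej1, Xrcc5, Xrcc6 and the p53 list was not tested. From hepatocytes to SHPCs all 8 markers of sinusoidal endothelium were lower, by a median of −0.15 (7 of 8 without both arrays that stood apart and after cyclic loess). For stellate cells and fibroblasts 8 of 10 markers were lower, by −0.06. All 8 of bile duct cells were higher, by 0.15 (5 of 8 without both arrays). In these 3 lists 0 passed, and at an unadjusted p under 0.05 no endothelial, 4 stellate (1 higher and 3 lower) and 1 bile duct marker (higher) differed. Tested markers of mesothelium, bile duct cells, neutrophils, stellate cells with fibroblasts, B cells, sinusoidal endothelium, erythroid cells, and T with NK cells had medians of −0.20 to 0.20 between the SHPC groups and −0.20 to 0.31 from hepatocytes to transplanted SHPCs. In the latter comparison 5 of 8 bile duct markers were higher, by a median of 0.305 with 0 passing. At an unadjusted p under 0.05, 3 were higher and 0 lower. Without both arrays that stood apart the median was 0.38 with 2 passing. Of 10 stellate and fibroblast markers 7 were higher in that comparison, by 0.19 with 0 passing, and 2 passed without both arrays. Unadjusted, 3 were higher and 2 lower. The part of these cells in the differences was not tested.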

How the data were processed

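Each of the 9 arrays measured RNA of one microdissected sample from frozen sections of 7 µm. Each deposited value is a linear intensity of 1 probe set, made by the authors with RMA, which corrects background, normalizes and summarises probes, per the submitters' processing notes; its settings and the genome build are not given in the sources used here. Here log2 was taken with no pseudocount. Precision is limited by the number of arrays. Of 36685 probe sets 18511 had 1 gene symbol in the platform annotation, 575 had several and 17599 none, and 0 columns belonged to other samples. The probe set with the highest mean stood for each of 18166 symbols. A gene was tested if at least 3 arrays exceeded that array's 25th percentile. The 3 comparisons used limma 3.58.1 (R 4.3.3), with 6 residual degrees of freedom, eBayes and Benjamini-Hochberg adjustment at 0.05. The fit was also run on simulated arrays with independent noise. These held no arrays that stood apart and no equal values, so that run checks the code and not the fit to these data. The members and lists were chosen with earlier results of these data known.

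Members named are those passing, up to 6 in each direction by smallest p among those whose groups lay apart, that with the smallest p in each role, and Brca1, Brca2, Fancd2, Fanci, Fanca, Atm, Chek1, Xrcc5, Xrcc6 and Rev3l. Of each other pathway list the 2 smallest p in each comparison were named. Bard1, Brip1 and Fancl were also given singly, outside this rule. Ranges cover the other members.

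Equal replicate numbers carry no stated meaning. Deviations from group means correlated at 0.53, 0.70 and 0.34 for same-numbered hepatocyte and SHPC arrays, so these groups were treated as paired in an alternative, and at −0.09 to 0.0023 with those of transplanted livers. With both arrays numbered 2 left out, the correlation was 0.10. Alternatives were other normalizations, filters, probe set averaging, fits of the compared groups alone, array weights, intensity trend, replicate blocks and arrays left out.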

Additional observations from a re-analysis of the deposited data

How the results depend on the processing

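The changes of Rad51ap1, Brca1, Eme1, Nhej1, Fanci, Fancd2, Xrcc5, Xrcc6, Topbp1 and Xrcc2 in the comparisons that name them by the stated rule kept their direction in all 20 to 22 alternatives that gave a value. Under the 3 scalings or without both arrays that stood apart, the sign turned for 10 of all 42 members from hepatocytes to SHPCs, 16 between the SHPC groups and 14 from hepatocytes to transplanted SHPCs. The largest change that turned was 0.18, 0.13 and 0.19 in size, and Atm, Chek1, Rev3l, Polh, Brca1, Brca2, Bard1, Xrcc1 and Xrcc2 turned in at least 1 comparison. Counts of members called went from 0 to 1 for hepatocytes against SHPCs with cyclic loess, a filter at the array median, intensity trend, the replicate number as a fixed or random block, the block in these groups alone (added after the data were seen) and without both arrays that stood apart, and to 3 with array weights; leaving out single arrays gave 0 to 1. Between the SHPC groups the count of 0 became 1 with array weights alone and stayed 0 without any single array. The median change there, −0.0029, became 0.10 after median centring, 0.0886 after renewed quantile normalization and 0.10 after cyclic loess, and lay between −0.0463 and 0.0244 without single arrays. From hepatocytes to transplanted SHPCs the count of 2 became 0 after median centring, 1 with the filter at the array median, 4 in the compared groups alone, with the random replicate block and without both arrays that stood apart, and 9 with array weights; single arrays left out gave 0 to 4. The median of 0.07 became 0.16, 0.15 and 0.15 after median centring, renewed quantile normalization and cyclic loess. The fixed replicate block gave 3 there and 0 between the SHPC groups, whose numbers do not pair with those of transplanted livers. The cause of these differences was not tested. All genes called ranged from 0 to 375, 0 to 259 and 31 to 2685 over the alternatives of the 3 comparisons, against 10, 1 and 186. For single members, 13 values lost and 28 gained a call.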

Other observations

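Several repair and checkpoint genes held exactly the same deposited value on many arrays. Of the 42 tested members, 12 (28.6%) had 1 value, equal to 4 decimals, on 4 or more of the 9 arrays, against 1905 of 15793 tested genes (12.1%). Chek1 had it on 6 arrays and Atm, Chek2, Brca2 and Ercc1 on 5 each, while Fancd2, Fanci, Nhej1 and Brca1 had 9 different values. Equal values can lower the spread that the fit sees for such a gene, but did not do so for each. From hepatocytes to SHPCs the SE was 0.12 for Atm, and 0.18 for both Chek1 and Fancd2. No source used here says how the equal values arose.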
